A study of Mus musculus with 4 samples.

Results

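The genes described here encode the nuclear subunits of oxidative phosphorylation, grouped by respiratory complex. A gene was a member when its symbol began with Ndufa, Ndufb, Ndufc, Ndufs or Ndufv (complex I), was Sdha, Sdhb, Sdhc or Sdhd (complex II), began with Uqcr or was Cyc1 (complex III), began with Cox4i, Cox5, Cox6, Cox7 or Cox8 (complex IV), or began with Atp5 (complex V). Assembly factors named Ndufaf and symbols beginning with Atp5s were left out, and each gene was read from its transcript with most reads over the 4 libraries. The rule uses symbols and no measured difference. It found 84 members among 22011 genes: 38 of complex I, 4 of complex II, 9 of complex III, 18 of complex IV and 15 of complex V. The subunits encoded by mitochondrial DNA were not analysed here.

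The libraries were made from total RNA of mouse fetal liver cells, 2 labelled wild type (WT) and 2 labelled hnRNP L -/- (knockout, KO). hnRNP L is an RNA-binding protein that acts in pre-mRNA splicing. The labels' growth protocol names CD45.1 mice, an LckCre transgenic line, C57BL/6 mice and the reporter line Gt(ROSA)26Sortm4(ACTB-tdTomato,-EGFP)Luo without saying which of them these fetuses came from. The sources used here do not give the kind of deletion, the embryonic day, the litter or any pooling of fetuses. Ribosomal RNA was depleted before sequencing, and the 4 libraries ran on 2 slides, 2 to a slide. The labels do not tell which 2 ran together, so slide and genotype cannot be told apart. Each library is labelled only as a mouse of its genotype, and the p-values reflect how far the 4 libraries spread, which may be technical.

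Mapped reads ranged from 70020061 in WT replicate 1 to 111324295 in WT replicate 2, of which 33738843 to 56895360 fell on the transcripts used. The normalised read counts (CPM, on TMM-scaled library sizes) of Hnrnpl were 460 and 603 in WT and 280 and 269 in KO. Both KO libraries lay below both WT libraries, at 0.516 of the WT level (log2 fold change -0.95, SE 0.16, edgeR adjusted p = 0.0114), so reads of the targeted gene were reduced and not absent. Marker genes of blood and liver cells differed too. Of 20 erythroid markers, 14 fell, and their summed reads per transcript length, scaled to the mapped reads (RPKM), went from 35868 and 31904 in WT to 20445 and 15851 in KO. Of 18 hepatocyte markers, 7 rose (13693 and 10488 in WT, 22151 and 19321 in KO). Megakaryocyte markers rose in 5 of 7 and granulocyte markers in 4 of 9, while 2 macrophage markers fell and 1 rose among 7 tested. Over all genes tested, 9.44% were called lower and 11.4% higher. In bulk RNA, fewer cells of a type and less RNA per cell cannot be told apart, and the part of these shifts in the results below was not tested.

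Oxidative phosphorylation couples electron transfer to ATP synthesis in the inner mitochondrial membrane. Complexes I and II pass electrons from NADH and succinate to ubiquinone, complex III passes them on to cytochrome c, complex IV reduces oxygen, and complex V makes ATP from the proton gradient that complexes I, III and IV build. Most subunits are encoded in the nucleus, and several of complex IV exist as tissue forms, some of them used mainly in heart and skeletal muscle. Nuclear respiratory factor 1 (NRF1), the ETS family factor GABP, YY1 and the estrogen-related receptors are known to bind promoters of many of these genes. Red cell precursors in fetal liver carry mitochondria and lose them late in maturation.

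Promoters of the members were read from RefSeq (GRCm38.p6), as windows of 300 bases from 250 before the transcript start to 50 after it. Of the 84 members, 68 were found, with 73 windows. The core NRF1 motif, searched on both strands as were all motifs, was in 24.7% of member windows, in 4.60% of all 32851 windows and in 8.81% of the 14830 windows of genes tested for expression here. Its extended form, which is the core motif with a T before it, was in 13.7% of member windows, 2.44% of all windows and 4.61% of those of tested genes. The ETS motif CCGGAAG was in 21.9%, 8.86% and 15.5%, the YY1 motif in 5.48%, 0.633% and 1.28%, and the ERR motif TCAAGGTCA in 2.74%, 0.423% and 0.263%, in the same order. Median GC content was 57.3% in member windows, 52.7% in all windows and 60% in those of tested genes. The NRF1 motif occurred in 7 of 33 matched genes of complex I, 2 of 3 of complex II, 1 of 5 of complex III, 1 of 13 of complex IV and 6 of 14 of complex V. All 4 genes with the YY1 motif were complex I genes. A match to these letters is a description of the window, not a measured binding site.

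The windows of 4 members held both an NRF1 and an ETS motif, and they are shown because they carry the motif pair in subunits of 3 complexes. Capitals mark every motif match on either strand. They lie at chr11:115419870-115420169 (Atp5h), chr5:108434350-108434649 (Atp5k), chr5:115348909-115349208 (Cox6a1) and chr9:50603800-50604099 (Sdhd), all on the minus strand and printed 5′ to 3′ along the gene. The Sdhd window also holds the ERR motif.
Atp5h: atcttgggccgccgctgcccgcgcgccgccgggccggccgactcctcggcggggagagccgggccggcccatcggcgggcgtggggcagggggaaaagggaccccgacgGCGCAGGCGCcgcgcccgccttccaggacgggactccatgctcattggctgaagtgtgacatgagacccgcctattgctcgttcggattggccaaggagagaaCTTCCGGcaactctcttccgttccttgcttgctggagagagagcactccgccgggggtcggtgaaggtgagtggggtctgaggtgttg
Atp5k: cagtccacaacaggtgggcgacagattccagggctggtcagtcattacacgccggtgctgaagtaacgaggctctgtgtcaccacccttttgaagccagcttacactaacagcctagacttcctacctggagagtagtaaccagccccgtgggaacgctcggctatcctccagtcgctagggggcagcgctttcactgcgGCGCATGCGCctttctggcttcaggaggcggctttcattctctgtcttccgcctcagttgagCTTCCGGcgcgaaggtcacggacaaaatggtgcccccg
Cox6a1: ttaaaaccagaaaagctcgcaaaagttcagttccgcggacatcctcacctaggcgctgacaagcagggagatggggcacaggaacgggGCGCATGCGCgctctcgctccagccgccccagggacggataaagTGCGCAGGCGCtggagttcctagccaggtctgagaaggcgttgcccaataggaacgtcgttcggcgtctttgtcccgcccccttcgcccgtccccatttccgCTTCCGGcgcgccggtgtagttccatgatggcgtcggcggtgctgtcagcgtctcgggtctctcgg
Sdhd: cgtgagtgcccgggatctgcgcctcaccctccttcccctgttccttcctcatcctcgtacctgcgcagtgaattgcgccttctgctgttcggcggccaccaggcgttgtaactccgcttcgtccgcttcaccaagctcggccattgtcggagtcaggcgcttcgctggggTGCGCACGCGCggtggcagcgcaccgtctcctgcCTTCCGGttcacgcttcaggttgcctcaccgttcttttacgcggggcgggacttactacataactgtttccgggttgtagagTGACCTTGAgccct

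Among these 4 genes, transcript levels in KO were 0.670 of WT for Atp5h, 0.920 for Atp5k, 0.792 for Cox6a1 and 0.819 for Sdhd, and Atp5h alone passed the test. Over all members with a matched promoter, the median log2 fold change was -0.21 for the 16 tested genes with the NRF1 motif, of which 1 fell, and -0.31 for the 49 without it, of which 7 fell. For the ETS motif the medians were -0.33 with it (16 genes, 3 fell) and -0.27 without it (49 genes, 5 fell). For the YY1 motif the medians were -0.17 over 4 genes, none of which was called, and -0.31 over 61 genes. The medians were negative with and without each of the 3 motifs, and the differences between them were not tested.

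Across the complexes, most subunit transcripts were somewhat lower in KO and few of them passed the test. Of the 84 members, 80 had enough reads to be tested, and Cox7b2, Cox8b, Cox8c and Atp5g2 did not. In KO, 10 of the 80 tested members fell (12.5%) and 0 rose. Over all 15028 genes tested, 20.8% were called in either direction, 9.44% as lower and 11.4% as higher, so the share of members called lower is close to the background. At an unadjusted p under 0.05, edgeR placed 28 members lower (35%) and 1 higher, where 17.5% of all genes were lower and 19.8% higher. DESeq2 called 20 members lower and 0 higher, that is 25% of the 80 with an adjusted p, where it called 11.9% of all genes lower. With limma voom 10 members were lower and 0 higher, where 9.48% of all genes were lower. The median log2 fold change over the 80 members was -0.29, beside 0.02 over all genes tested, and it was negative in 72 members. Among all genes 48.7% were negative. Both KO libraries lay below both WT libraries in 52 members (65%), where 31.7% of all genes did so. Both KO libraries lay above both WT libraries in 3 members, Ndufa8, Ndufv3 and Cox4i2, where 33.5% of all genes did so. The count of members that fell rested on single libraries, and the count of calls over all genes changed with them too. In the 4 fits with 1 library left out, a group holds a single library. Log2 fold changes were then negative in 73 of 81 members without WT replicate 1 and 70 of 80 without WT replicate 2. They were negative in 72 of 81 without KO replicate 1 and 68 of 81 without KO replicate 2. Of the 10 called members, Cox6c lost its call only without KO replicate 2, and 8 lost theirs in at least 2 of these 4 fits. Cox6a2 kept its call in each, but it entered the test only through its WT reads.

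**Figure D1:**
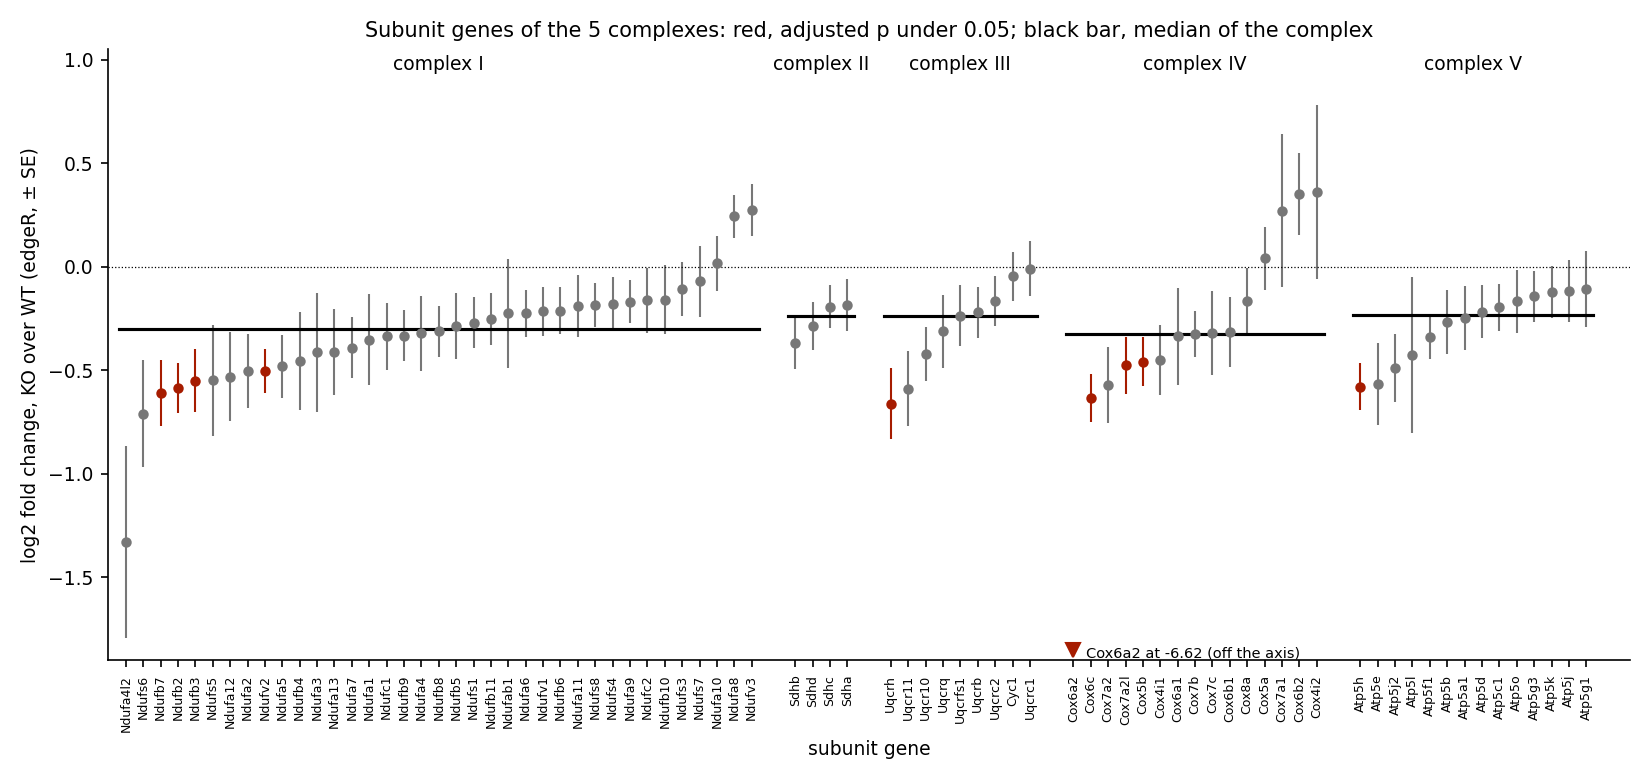
Log2 fold change of KO over WT for 79 of the 80 tested members, with bars of 1 standard error, grouped by complex I to V, and black bars for the median of all tested members of a complex. Points lie mostly below 0 in every complex, and the 10 members past the test are marked.

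Summed over the 84 members, reads made up 1.03% of reads on transcripts in both WT libraries, 0.928% in KO replicate 1 and 0.909% in KO replicate 2. The summed CPM of complex I was 2630 and 2563 in WT and 2342 and 2017 in KO, which is 0.839 of WT. Complex II reached 842 and 868 in WT and 737 and 719 in KO (0.852 of WT), and complex III 1403 and 1401 against 1261 and 1179 (0.870 of WT). Complex IV went from 1563 and 1345 to 1296 and 984 (0.784 of WT), and complex V from 4314 and 4371 to 3611 and 3642 (0.835 of WT). In each complex both KO sums lay below both WT sums. The sum over all genes lay lower in both KO libraries too on this scale, at 96.3% and 90.8% of its WT mean (0.936 of WT). An exact permutation test of 2 against 2 libraries cannot give a p below 0.333, so these sums were not tested. The 2 KO libraries were not alike: KO replicate 2 was below KO replicate 1 in 59 of the 80 members and in 7580 of all 15028 genes tested. WT replicate 2 was below WT replicate 1 in 47 of the 80 members and in 7622 of all genes. The complex IV sum was 67.7% of the WT mean in KO replicate 2, against 89.1% in KO replicate 1. For complex V the 2 were at 83.9% and 83.2%.

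**Figure D2:**
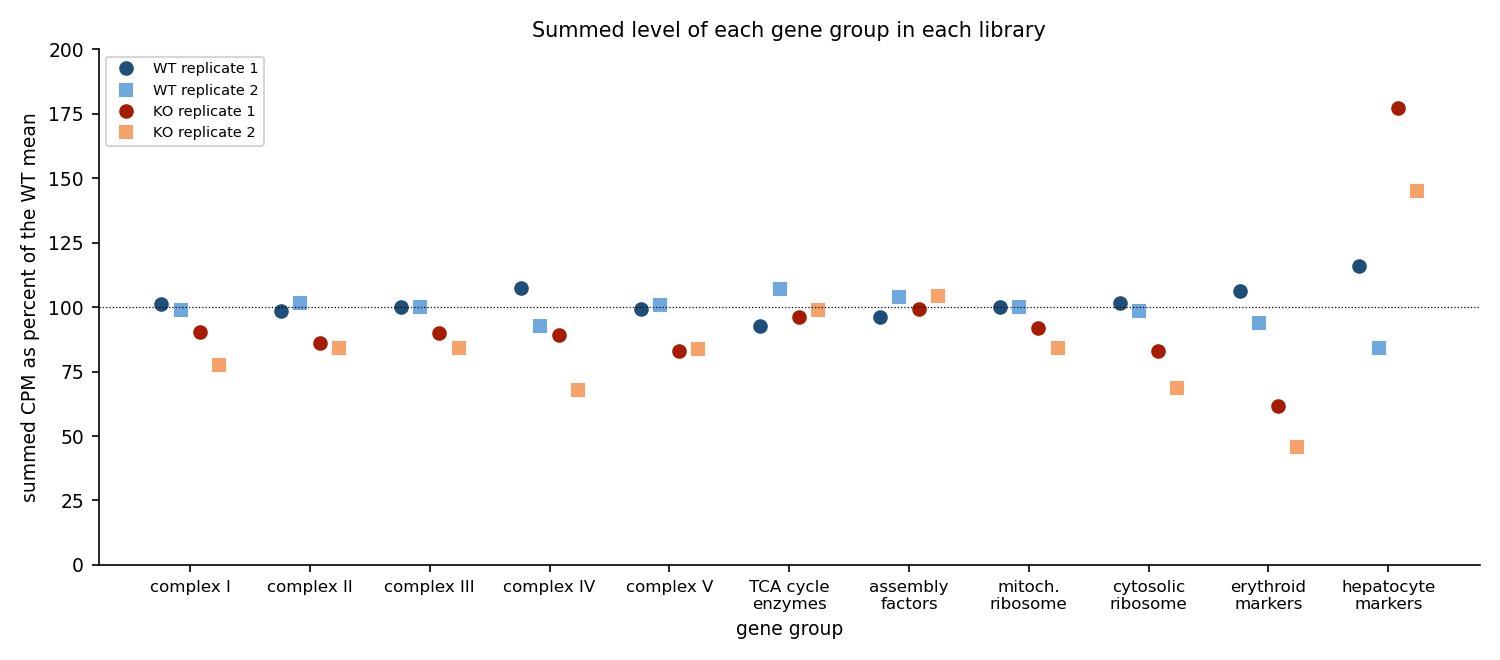
Summed CPM of each gene group in each library, as percent of the WT mean of that group, for the 5 complexes, TCA cycle enzymes, assembly factors, both ribosomes and the erythroid and hepatocyte markers. In the complexes all KO points lie below the WT points, and KO replicate 2 lies below KO replicate 1 in complexes I to IV, most in complex IV.

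Complex I is the NADH dehydrogenase, built from a flavin and iron-sulfur arm and a membrane arm with many accessory subunits. All 38 of its members were tested and 4 fell (10.5%), beside 9.44% of all genes tested, with a median log2 fold change of -0.30. The 2 highest in WT per length were the membrane arm subunits Ndufb9, at 116 ± 0.205 RPKM (SD, n = 2), and Ndufb8, at 101 ± 1.78 RPKM. Their CPM were 164, 151, 135 and 115 for Ndufb9 and 143, 129, 118 and 100 for Ndufb8, in the order WT 1, WT 2, KO 1 and KO 2. Both genes had every KO library below every WT library and neither passed the test (edgeR adjusted p = 0.0910 and 0.110).

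The core subunit that fell was Ndufv2, which holds an iron-sulfur cluster in the NADH-oxidising arm (chromosome 17, 66428135 to 66450831, minus strand, in the files' own coordinates, whose build is not given). Its CPM were 145 and 138 in WT (141.7 ± 5.03, SD, n = 2) and 103 and 96.8 in KO (99.9 ± 4.4). KO was 0.705 of WT (log2 -0.50, SE 0.11, edgeR adjusted p = 0.0194), with no overlap. The other 3 that fell are accessory subunits of the membrane arm. Ndufb2 (chromosome 6, 39542582 to 39549470, plus strand) had 33.4 and 37.3 CPM in WT and 23.2 and 23.9 in KO, or 0.666 of WT (adjusted p = 0.0182). Ndufb3 (chromosome 1, 58643443 to 58652792, plus strand) had 24.1 and 25.4 in WT and 18.9 and 14.8 in KO, or 0.683 of WT (adjusted p = 0.0425). Ndufb7 (chromosome 8, 86090657 to 86095522, plus strand) had 81.9 and 75.6 in WT and 59.7 and 43.5 in KO, or 0.655 of WT (adjusted p = 0.0347). In all 3 the groups were apart, and the KO libraries of Ndufb7 differed most from each other.

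Of the other core subunits, Ndufv1, which binds FMN, had 101, 111, 97.7 and 85.4 CPM, and the large iron-sulfur subunit Ndufs1 had 219, 252, 191 and 199 CPM (WT 1, WT 2, KO 1, KO 2). For Ndufv1 and Ndufs1 every KO library was below every WT library, and neither passed the test (adjusted p = 0.223 and 0.154). The core gene Ndufs8 was apart too, with 118, 110, 103 and 97.5 CPM (edgeR adjusted p = 0.247). The groups overlapped in the core genes Ndufs3 (38.7, 42.0, 34.0 and 40.8 CPM, log2 -0.11) and Ndufs7 (70.3, 72.9, 80.8 and 55.5 CPM, log2 -0.07). In 2 accessory subunit genes both KO libraries lay above both WT libraries: Ndufa8 went from 67.5 and 72.3 to 83.3 and 82.2 CPM (1.18 of WT, adjusted p = 0.131), and Ndufv3 from 19.5 and 21.7 to 24.5 and 25.4 (1.21 of WT, adjusted p = 0.16). Neither passed the test. Among the other accessory subunits, Ndufs6 had 70.6 and 56.5 CPM in WT and 50.2 and 27.5 in KO (0.611 of WT, adjusted p = 0.0884), and Ndufa5 had 17.6 and 15.2 against 12.1 and 11.3 (0.716 of WT, adjusted p = 0.0621). Both had groups apart and missed the threshold. Ndufa4 and its paralog Ndufa4l2 were placed in complex I by their symbols alone. The lowest tested member, Ndufa4l2, had 1.33 ± 0.893 RPKM in WT and 1.45, 3.78, 0.940 and 1.17 CPM, with a log2 fold change of -1.33 (SE 0.46, adjusted p = 0.0793). WT replicate 2 stood highest.

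Complex II, succinate dehydrogenase, is encoded wholly in the nucleus and also takes part in the tricarboxylic acid (TCA) cycle. None of its 4 genes passed the edgeR test (2 lower at an unadjusted p under 0.05, 0 called by DESeq2 and by limma voom). All 4 had both KO libraries below both WT libraries, as had 31.7% of all genes tested. The flavoprotein gene Sdha had 424 and 435 CPM in WT and 378 and 378 in KO (0.880 of WT, adjusted p = 0.322). The iron-sulfur gene Sdhb had 127 and 117 in WT and 103 and 85.6 in KO (0.776 of WT, adjusted p = 0.0754). The membrane anchors were Sdhc, with 120 and 121 against 105 and 107 (0.875 of WT, adjusted p = 0.209), and Sdhd, with 172 and 195 against 151 and 149 (0.819 of WT, adjusted p = 0.116). Per length, WT levels were close, with Sdha at 72.1 ± 5.31 RPKM, Sdhd at 68.6 ± 9.92, Sdhb at 54.4 ± 0.0289 and Sdhc at 49.2 ± 3.02 (SD, n = 2), and Sdha and Sdhd differed by less than their spread.

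Complex III, the cytochrome bc1 complex, had 9 members, all tested. Beside 9.44% of all genes called lower, 1 of the 9 fell (11.1%). This was Uqcrh, the hinge subunit that helps cytochrome c1 dock cytochrome c (chromosome 4, 115739570 to 115747675, minus strand). Its CPM were 174 and 128 in WT (150.9 ± 32.6, SD, n = 2) and 105 and 85.7 in KO (95.3 ± 13.7), 0.632 of WT (log2 -0.66, SE 0.17, edgeR adjusted p = 0.0343). The groups were apart, with WT replicate 1 well above the rest. The 2 highest members per length in WT were Uqcrq (136 ± 10.96 RPKM) and Uqcrh (132 ± 21.3 RPKM), which did not differ beyond their spread. Uqcrq had 139, 144, 136 and 92.1 CPM in WT 1, WT 2, KO 1 and KO 2 (adjusted p = 0.239), so KO replicate 2 alone was low. The heme-bearing Cyc1 had 253, 249, 231 and 254 CPM and the core protein gene Uqcrc1 had 267, 309, 298 and 274, with overlapping groups. The small subunits Uqcr10 (76.8 and 65.8 CPM in WT, 57.3 and 48.9 in KO, adjusted p = 0.0561) and Uqcr11 (51.7 and 40.7 against 35.5 and 25.9, adjusted p = 0.0570) were lower in both KO libraries and missed the threshold. Uqcrfs1, the Rieske iron-sulfur protein gene and the lowest tested member, had 39.3 ± 9.35 RPKM in WT and 93.1, 121, 97.2 and 84.5 CPM.

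Complex IV, cytochrome c oxidase, had 15 tested members of 18, of which 4 fell (26.7%), where 9.44% of all genes tested were called lower. Among the 4 was Cox6a2, which had to differ once it was tested, as described below. The median log2 fold change was -0.33. Cox6c (chromosome 15, 35861731 to 35868001, minus strand) is a small accessory subunit. Its CPM were 108 and 99.0 in WT (103.6 ± 6.49, SD, n = 2) and 71.0 and 62.5 in KO (66.8 ± 5.97), 0.645 of WT (log2 -0.63, SE 0.12, edgeR adjusted p = 0.0139), with no overlap. Cox5b (chromosome 1, 36748332 to 36750233, plus strand), which binds zinc, had 49.6 and 43.5 in WT and 34.3 and 33.4 in KO, or 0.728 of WT (adjusted p = 0.0340). Cox7a2l (chromosome 17, 83901257 to 83913673, minus strand), a protein that links complexes III and IV in supercomplexes, had 52.4 and 47.8 in WT and 32.1 and 39.9 in KO, or 0.719 of WT (adjusted p = 0.0468). In both genes every KO library was below every WT library. The highest members per length in WT were Cox6a1, at 340 ± 64.4 RPKM, and Cox4i1, at 233 ± 6.04 RPKM. Cox6a1 had 446, 315, 363 and 239 CPM (WT 1, WT 2, KO 1, KO 2), with overlapping groups (adjusted p = 0.334), and Cox4i1 had 348, 311, 278 and 204 CPM (adjusted p = 0.0945), with groups apart.

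The fourth member of complex IV to fall was Cox6a2, the heart and skeletal muscle form of Cox6a (chromosome 7, 135348949 to 135349880, minus strand). It had 27 and 91 reads in WT and 0 and 1 in KO, a KO over WT ratio of 0.00751 with an exact 95% interval of 0.000189 to 0.0427 that covers counting error only, and an edgeR adjusted p of 0.00752. Cox6a2 passed the filter on low counts only through its WT reads, so it had to differ once it was tested, and a filter of 1 CPM in 2 libraries left it out. The levels of 15 cardiac muscle markers summed to 33.0 and 174 RPKM in WT and 9.14 and 8.05 RPKM in KO. Of 13 tested markers, edgeR called 10 lower and limma voom 5, where they called 9.44% and 9.48% of all genes lower. Myl3 and Nppa were at 0 reads in KO replicate 1. A marker that passed the filter only through its WT reads had to differ, as Cox6a2 did. The counts of 10 and 5 include any such markers, whose number was not determined. The 8 skeletal muscle markers summed to 1.99 and 7.93 RPKM in WT and 0.756 and 1.35 RPKM in KO. WT replicate 2 was highest in Cox6a2 and in both lists, and the part of muscle RNA in the Cox6a2 result was not tested. Cox8b, the muscle form of Cox8, was below the filter on low counts, with 41 reads over WT and 1 over KO, a ratio of 0.0216 (0.000534 to 0.127, counting error only). It was called lower when that filter was taken off, but its reads were nearly all from WT, so it had to differ once it was tested. The muscle form Cox7a1 did not follow them, with 1.24 and 1.76 CPM in WT and 2.26 and 1.40 CPM in KO.

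Where a subunit has paralogs, the share of each was taken from RPKM, per length. The lowest share in any library was 99.58% for Cox6a1 within Cox6a, 99.63% for Cox4i1 within Cox4i, 99.15% for Cox8a within Cox8 and 98.18% for Ndufa4 within its pair. Cox7b made up nearly all of Cox7b and Cox7b2. Among these main forms, Cox8a had 123, 116, 124 and 89.3 CPM, Ndufa4 91.7, 104, 93.6 and 63.2, and Cox7b 128, 118, 103 and 93.8 in WT 1, WT 2, KO 1 and KO 2, and none passed the test. The groups overlapped in Cox8a and Ndufa4 and were apart in Cox7b (adjusted p = 0.0744). The hypoxia-linked lung form Cox4i2 had 0.743, 0.558, 0.836 and 0.819 CPM, and Cox7b2 and Cox8c had 1 read each in all, both in WT replicate 2. The 2 Cox6b genes were both well expressed. Cox6b2, known mainly as a testis form, made up 34.2% and 30.03% of Cox6b RPKM in WT and 43.1% and 42.6% in KO. Its CPM were 40.7, 32.8, 55.7 and 37.8 in WT 1, WT 2, KO 1 and KO 2, with overlapping groups and a log2 fold change of 0.35 (SE 0.20, adjusted p = 0.233), while Cox6b1 had 71.8, 70.0, 67.4 and 46.6 CPM (adjusted p = 0.217). Across splice junctions Cox6b2 had 1722 reads. Its share of Cox6b junction reads was 51.7% and 38.2% in WT and 47.9% and 53.0% in KO, so the groups overlapped by this reading and were apart by RPKM. Cox7a2 held between 69.7% and 79.2% of the Cox7a group, Cox7a2l between 17.0% and 27.3%, and Cox7a1 between 1.504% and 3.76%. Cox7a2 had 133 and 112 CPM in WT and 98.0 and 66.8 in KO, with groups apart (0.673 of WT, adjusted p = 0.0649).

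Complex V, the ATP synthase, had 14 tested members of 15, of which 1 fell (7.14%, beside 9.44% of all genes tested). All 14 had a negative log2 fold change. Atp5h, a subunit of the peripheral stalk (chromosome 11, 115277011 to 115281233, minus strand), had 36.6 and 34.4 CPM in WT (35.5 ± 1.57, SD, n = 2) and 24.2 and 23.3 in KO (23.8 ± 0.595), 0.670 of WT (log2 -0.58, SE 0.12, edgeR adjusted p = 0.0172), with no overlap. The highest of complex V per length in WT were the subunits of the catalytic head, Atp5b at 448 ± 13.0 RPKM and Atp5a1 at 249 ± 35.4 RPKM. Atp5b had 1785, 1720, 1450 and 1462 CPM in WT 1, WT 2, KO 1 and KO 2 (0.831 of WT, adjusted p = 0.247). Atp5a1 had 1179, 1334, 1033 and 1084 CPM (0.842 of WT, adjusted p = 0.284). Both were lower in every KO library and neither passed the test. The lowest tested member, Atp5l, stood at 1.30 ± 0.144 RPKM in WT, and its reads are taken up with the near-identical copies below. Among the members that missed the threshold, the peripheral stalk subunit Atp5f1 had 158 and 157 CPM in WT and 122 and 127 in KO (adjusted p = 0.0554), the rotor subunit Atp5e 95.1 and 71.2 against 66.0 and 46.2 (adjusted p = 0.0793), and Atp5j2 222 and 162 against 145 and 129 (adjusted p = 0.0716). The c subunit gene Atp5g3 had 290, 310, 259 and 284 CPM.

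**Figure D3:**
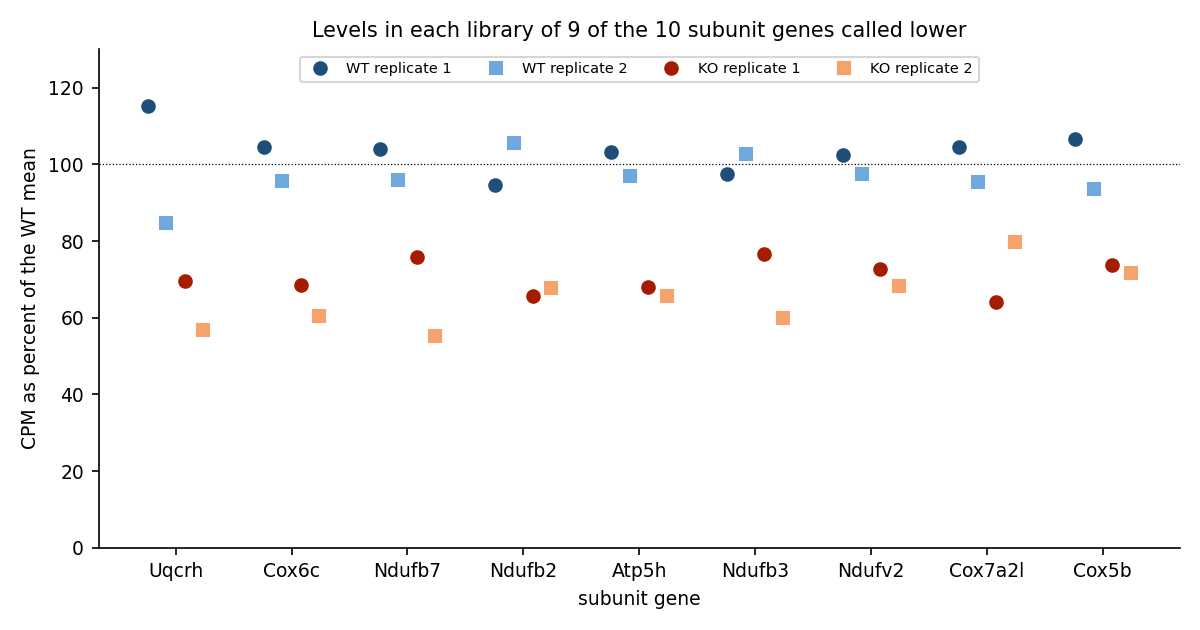
CPM of the 9 called members other than Cox6a2 in each library, as percent of the WT mean of each gene. Every KO point lies below every WT point, and the KO replicates lie closest in Ndufb2, Cox5b and Atp5h.

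Not all of these values count every read of a gene. The transcript counts kept only reads of mapping quality 10 or more, a filter that drops reads fitting several places equally well, and many subunit genes are known to have processed copies in the genome. In 15 members at least 50% of bases lay in stretches of 50 or more bases that were at least 95% identical to another annotated gene. Among them were Atp5o (92.0% of bases), Atp5g2 (88.2%), Atp5l (86.8%) and Atp5h (77.8%), and of the called members also Cox5b (50.9%) and Ndufb2 (50.8%). Atp5g2, 1 of the 3 genes for the c subunit, had 3 transcript reads in all but 1229 reads across its known splice junctions. Atp5l had 226 transcript reads and 883 junction reads, and Atp5g1 had 1552 and 2166. By RPKM Atp5g3 made up 97.3% to 97.9% of the Atp5g group, but by junction reads it made up 65.4% to 74.1% and Atp5g2 8.56% to 15.5%. More junction than transcript reads were seen in 3 of 79 members and 172 of 12544 genes with at least 200 reads. How junction reads were counted is not stated, so these values are less certain. With the 15 members left out, 7 of 66 tested members fell (10.6%, beside 9.44% of all genes tested), with a median log2 fold change of -0.28. Of the 14 tested members left out, 3 fell (21.4%), with a median of -0.33.

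**Figure D4:**
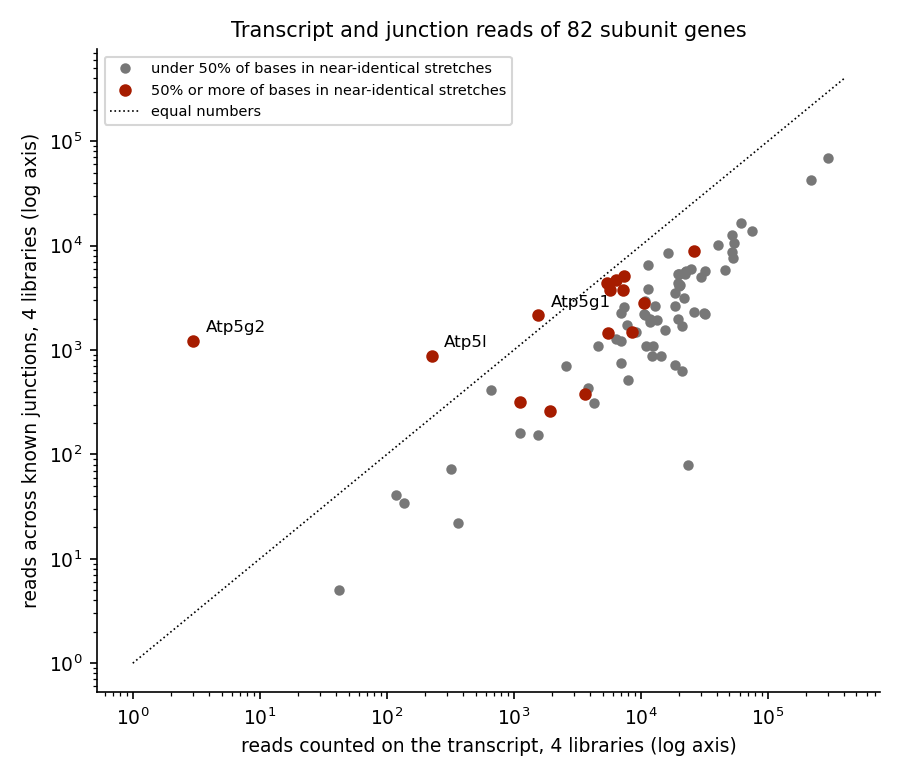
Junction reads against transcript reads, summed over the 4 libraries, for 82 members on logarithmic axes, with red points for members with at least 50% of bases in near-identical stretches. Atp5g2, Atp5l and Atp5g1 lie above the line of equal counts.

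Reads across known junctions, summed per gene, gave a second reading of the same libraries, chosen after seeing these differences. It called 2 of 80 members lower, Cox6a2 and Atp5h, where 4.4% of 11247 genes were called lower. The median log2 fold change was -0.20, negative in 68 members. The other 8 called members had negative log2 fold changes in junction reads and did not pass. They were -0.56 for Ndufb7, -0.50 for Ndufb3, -0.43 for Cox5b, -0.41 for Ndufv2, -0.31 for Ndufb2, -0.30 for Cox6c and for Uqcrh, and -0.15 for Cox7a2l, with edgeR adjusted p from 0.0786 (Cox5b) to 0.757 (Cox7a2l). In Uqcrh, Cox6c and Cox7a2l the junction values were smaller in size than the transcript values of -0.66, -0.63 and -0.48. Junction reads were fewer, at a median of 19.95% of the transcript reads over 79 members.

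Subunit transcripts are short, with a median length of 669 nt against 2769.5 nt over all genes tested, and shorter transcripts had lower median fold changes in these libraries. For transcripts of up to 700 nt, the median log2 fold change was -0.40 over 42 members, of which 8 fell, and -0.20 over 640 genes, of which 13.75% fell. Between 700 and 1500 nt it was -0.22 over 26 members, of which 2 fell, and -0.10 over 2177 genes, of which 9.74% fell. Above 1500 nt it was -0.19 over 12 members, of which 0 fell, and 0.05 over 12211 genes, of which 9.16% fell. In each class the members' median was below that of all genes. The part of length in the results was not tested. Short transcripts also differed between the KO libraries: up to 700 nt, the median of KO replicate 2 minus KO replicate 1 was -0.32 (log2) in members and -0.28 in all genes, and WT replicate 2 minus replicate 1 was -0.14 and -0.04.

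**Figure D5:**
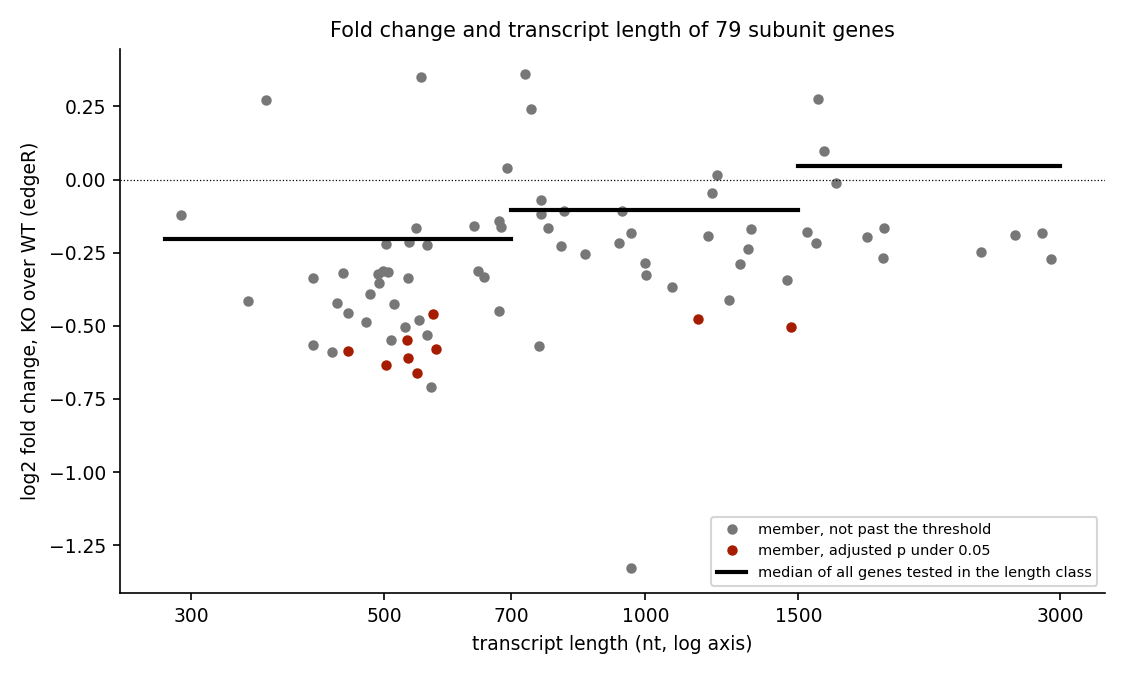
Log2 fold change of 79 members, Cox6a2 left out, against transcript length on a logarithmic axis, with red points past the test and black bars for the median of all genes in 3 length classes. The red points lie below 1500 nt, most of them at or below 700 nt.

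Since hnRNP L acts in splicing, the use of junctions within members was compared. Of 105454 junctions tested over all genes with diffSpliceDGE, 4 (0.00379%) passed the threshold. Among 360 junctions of 75 members, 348 of them known and 12 putative, 0 passed, and 4 (1.11%) were at an unadjusted p under 0.05, against 2.46% of all junctions. The 4 lowest, chosen after their values were seen, were in Ndufs7, Ndufa13, Sdhc and Atp5g1. Of the Sdhc junction reads, 6.19% and 5.53% in WT and 12.2% and 12.4% in KO fell on a known junction with 20, 32, 55 and 44 reads in WT 1, WT 2, KO 1 and KO 2. For Ndufa13, a known junction took 2.64% and 8.48% in WT and 4.88% and 35.8% in KO, so KO replicate 2 alone was high. The lowest adjusted p among members was close to 1, which does not show that junction use was unchanged.

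Other genes of the pathway were read from lists of assembly factors, regulators and TCA cycle enzymes. Of 30 assembly factors, 0 fell and 1 rose (3.33%), where 9.44% of all genes tested were called lower and 11.4% higher. DESeq2 and limma voom gave the same 0 and 1, and the median log2 fold change was -0.03. At an unadjusted p under 0.05, edgeR placed 2 lower and 3 higher, beside 17.5% and 19.8% of all genes. The one that rose was Cox10, which makes heme o for complex IV. Its CPM were 15.6 and 16.8 in WT and 23.6 and 30.3 in KO (1.66 of WT, edgeR adjusted p = 0.02005), with no overlap. Of 17 TCA cycle enzymes, 0 passed edgeR or limma voom (2 lower at an unadjusted p under 0.05), with a median of -0.14. DESeq2 called 2 of them lower, where it called 11.9% of all genes lower.

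Of 17 regulators, 4 fell (23.5%) and 2 rose (11.8%), where 9.44% of all genes tested were called lower and 11.4% higher. Both KO libraries lay below both WT libraries in 7 of the 17 and above them in 3, beside 31.7% and 33.5% of all genes. Nrf1, whose protein binds the NRF1 motif, had 136 and 145 CPM in WT and 109 and 99.3 in KO (0.740 of WT, edgeR adjusted p = 0.0317). Gabpb2, a subunit of GABP, had 280 and 284 in WT and 187 and 194 in KO (0.676 of WT, adjusted p = 0.0176). Yy1 had 74.1 and 74.7 against 55.7 and 60.2 (0.778 of WT, adjusted p = 0.0473). Tfb1m, a mitochondrial ribosomal RNA methyltransferase, had 19.9 and 18.0 against 10.7 and 12.9 (0.625 of WT, adjusted p = 0.0253). Ppargc1a, a coactivator of mitochondrial gene expression, rose from 10.03 and 12.5 CPM to 16.9 and 21.1 (1.68 of WT, adjusted p = 0.0282), and Polrmt, the mitochondrial RNA polymerase, from 24.2 and 23.6 to 33.2 and 32.0 (1.36 of WT, adjusted p = 0.0339). In all 6 the KO and WT libraries did not overlap. None of the 6 calls, nor that of Cox10, was kept in every fit with 1 library left out. By known junction reads per gene, all of these calls were lost. Atpif1, the inhibitor of ATP synthase, was named after its values were seen: it had 306 and 271 CPM in WT and 204 and 157 in KO (0.625 of WT, adjusted p = 0.0243). Of 75 tested mitochondrial ribosomal protein genes, 8 fell (10.7%, median -0.21), and of 84 cytosolic ones 10 fell (11.9%, median -0.37). Both shares stand beside 9.44% of all genes tested. Log2 fold changes were negative in 78.7% of the mitochondrial and 92.9% of the cytosolic ones, beside 90% of members and 48.7% of all genes.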

How the data were processed

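RNA from 4 fetal liver samples was sequenced, 2 WT and 2 KO by the genotype label. The authors deposited raw read counts for RefSeq transcripts, library by library. Per the file headers, counting took reads of mapping quality 10 or more (score clear zone 5, minimum score 0). The same tables hold RPKM values and reads per nucleotide, a coverage signal that was deposited and not used in a test. A further deposited table gives raw counts of reads across each splice junction. The sources used here name no aligner, genome build, strand setting or way of counting junction reads, and overlapping genes such as Atp5j and Gabpa or Ndufa13 and Tssk6 can share reads.

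From 28283 transcripts, 22011 genes were formed, with the transcript of most reads kept in each of 3809 genes that have several. Genes were tested with edgeR 4.0.16 (R 4.3.3; TMM factors, filterByExpr, quasi-likelihood test, Benjamini-Hochberg adjustment over all 15028 genes tested, threshold 0.05), without covariates. A fold of KO over WT is 2 to the power of the fitted log2 change. CPM use TMM-scaled library sizes, and levels of different genes were compared by RPKM. Junctions were tested, from 10 reads in all upward, with diffSpliceDGE. The scripts were tested on simulated data. Alternatives were DESeq2 1.42.0, limma voom 3.58.1, other size factors, other filters, reads summed over transcripts, a replicate block and each library left out. Junction reads per gene and leaving out near-copies were added after seeing the data. Near-identical stretches were found in GENCODE vM21 transcripts, and promoters are those of RefSeq GRCm38.p6, which is not the build of the files' coordinates.

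The members, gene lists and motifs were chosen with earlier results of these data known. Genes were named by a rule: Hnrnpl, every called member, in each complex the 2 highest and the lowest tested member per length in WT, all Sdh genes, all members of paralog groups, and called genes of the lists of assembly factors, regulators and TCA cycle enzymes. Other names illustrate a member's role and were chosen after their values were seen. Of 162 listed symbols, 9 were not matched. The intervals of read ratios cover counting error only. The values of 1 member of complex I are not reported here, though it enters all counts and medians.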

Additional observations from a re-analysis of the deposited data

How the results depend on the processing

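Members negative in the fit numbered 68 to 76 over the main fit and 13 alternatives, no member was called higher in any of them, and no median over the members or over a complex changed sign. The median over all genes tested ranged from -0.02 to 0.04. The count of called members was less stable. DESeq2 called 20 members lower (7 in complex I, 3 in III, 4 in V, median -0.26 in V). Without a filter on low counts 25 were lower (11 in complex I, 1 in II, 3 in III, 7 in IV, 3 in V). With the replicate block 28 were lower (13 in complex I, 1 in II, 3 in III, 7 in IV, 4 in V). Calls over all genes, in either direction, were more numerous in these fits too. They numbered 3130 in the main fit, 3649 with DESeq2, 4342 without the filter and 4341 with the block. The block rests on numbers shared by the deposited file names, not the labels, and deviations of same-numbered libraries correlated at r = 0.136 over 15028 genes, with only 2 pairs. Known junction reads gave 2 members lower (0 in complex I, 0 in III, 1 in IV), 1191 genes in all, and medians of -0.27 in II and -0.17 in V. Upper-quartile factors gave medians of -0.21 in II and -0.21 in V. A filter of 1 CPM gave 2 lower in complex V, and leaving out near-copies gave 0 there. Leaving out 1 library gave 2 to 21 members lower, 1022 to 2492 genes called, 0 to 10 in complex I, 0 to 1 in II, 0 to 3 in III, 2 to 5 in IV and 0 to 2 in V. The medians then ranged from -0.41 to -0.21 over all members, -0.26 to -0.19 in II, -0.36 to -0.14 in III, -0.54 to -0.17 in IV and -0.27 to -0.23 in V. The lone library of a group is then assumed to vary like the other group. Among named genes, 457 alternative fits kept the side of the threshold, 65 lost a call and 21 gained one. The cause of these changes was not tested. With 2 libraries a group, a member that missed the threshold is not shown to be unchanged.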
